A study of Mus musculus with 16 samples.

Results

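Transcription factors of the NF-kB family and the proteins that hold them back or feed back on them were followed in RNA of mouse CD4+ T cells from the uterus and its draining lymph nodes. The members were 10 genes named by symbol, of the 49585 genes in the table of read counts: the subunit genes Nfkb1, Nfkb2, Rel, Rela and Relb, the inhibitor genes Nfkbia and Nfkbie, the nuclear IkB genes Nfkbid and Bcl3, and the feedback inhibitor Tnfaip3. The rule uses symbols and no measured value, but the set was proposed with earlier results of these data known.

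RNA was sequenced from 16 libraries in 4 groups of 4, all from mice on a BALB/c background with the Foxp3IRES-GFP reporter, which marks regulatory T cells (Treg) green. Pregnant uterine Treg were sorted as CD4+Foxp3+CD25- at day 6 to 8 of pregnancy, from pools of 3 to 8 mice; the titles of some of these libraries give a later last day than their source label. Non-pregnant uterine Treg were also labelled CD4+Foxp3+CD25-, lymph node Treg were CD4+Foxp3+CD25+ cells of the para-aortic nodes, and CD4conv were CD4+Foxp3- conventional T cells of the non-pregnant uterus, each from pools of 20 mice. The uterine and lymph node Treg therefore differed in the CD25 label as well as in tissue. Pregnant uterine Treg and CD4conv were sequenced in the first batch, and non-pregnant uterine Treg and lymph node Treg in the second. A comparison across these batches cannot tell batch and group apart.

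Libraries held 1.72 to 15.2 M counts. Foxp3, which defined the sort, had 192 to 814 counts per M counts of the library (CPM) in the 12 Treg libraries and 0.503 to 3.26 CPM in the 4 CD4conv libraries. Each library also carried a layer of reads over genes that T cells do not use, measured in olfactory and vomeronasal receptor genes. Spread evenly over exons, that layer made up 8.68% of counts in pregnant uterine Treg 3, the lowest, and 53.5% in pregnant uterine Treg 4, the highest, and it passed 30% in 5 libraries: pregnant uterine Treg 2 and 4, non-pregnant uterine Treg 3 and 5, and lymph node Treg 3. All 10 members stood above it, by 6.74 times (Bcl3) to 562 times (Nfkbia) over the mean of all libraries. By group, only Bcl3 in non-pregnant uterine Treg was under 5 times the layer, at 4.66 times. In a single library a member could lie lower: Nfkbid in pregnant uterine Treg 4 had 2.80 CPM, under the 10.1 CPM of the layer over its exons. Tests were run on all 30096 genes with enough counts and again on the 4723 protein-coding genes more than 5 times above this layer; all 10 members were in both.

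NF-kB dimers sit in the cytoplasm of resting cells, bound by IkB proteins, and enter the nucleus when a kinase complex marks IkB for destruction. In the classical route the products of Rela, Rel and Nfkb1 are released within minutes of antigen receptor or cytokine signals; in the alternative route the precursor made by Nfkb2 is cut and pairs with RelB. Nfkbia, Nfkbie and Tnfaip3 are themselves classic NF-kB targets and close negative feedback loops. In T cells c-Rel and p65 are needed for Treg development and for the effector Treg state, and IkBNS, the product of Nfkbid, helps induce Foxp3.

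Because several of these genes are known targets of the factors they encode or restrain, their promoters are shown first. RefSeq promoter windows on GRCm38.p6, from 250 bases before to 50 bases after a transcript start, were at hand for 8 of the 10 members, all but Nfkb1 and Relb. They were searched on both strands for the loose NF-kB consensus decamer, with overlapping matches merged. This decamer runs through G residues, a purine, any single base, A or T, then pyrimidines and C residues. Of the 8 members, 7 held a match, 6 of them before the start, while 5.14% of the 27025 genes with windows held one and 4.46% held one before the start. Rela had none. A match says that the letters are there, not that a factor binds. The lines below run 5′ to 3′ on the gene's own strand with each match in capitals, and Rela stands among them as the promoter with no match.
Nfkb2: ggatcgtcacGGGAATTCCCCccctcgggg
Rel: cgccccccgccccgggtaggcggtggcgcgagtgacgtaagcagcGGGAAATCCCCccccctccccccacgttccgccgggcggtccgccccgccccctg
Rela: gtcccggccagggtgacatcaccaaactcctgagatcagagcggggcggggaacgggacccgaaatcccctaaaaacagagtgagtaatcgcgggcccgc
Nfkbia: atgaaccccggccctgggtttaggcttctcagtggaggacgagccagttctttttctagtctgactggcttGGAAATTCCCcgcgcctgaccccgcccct
Nfkbie: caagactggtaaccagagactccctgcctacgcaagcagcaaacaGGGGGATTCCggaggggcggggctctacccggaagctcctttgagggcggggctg
Nfkbid: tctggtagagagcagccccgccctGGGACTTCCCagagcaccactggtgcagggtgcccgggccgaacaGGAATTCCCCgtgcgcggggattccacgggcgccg
Tnfaip3: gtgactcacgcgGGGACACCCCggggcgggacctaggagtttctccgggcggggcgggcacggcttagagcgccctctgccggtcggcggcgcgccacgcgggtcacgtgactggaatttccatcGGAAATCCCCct

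The Nfkb2 line, chr19:46304688-46304717 on the plus strand, is limited to the bases around its first match, which starts 39 bases before a transcript start and lies within an exon of another annotated transcript. The same window held another match 11 bases before that start, and the windows of the other annotated Nfkb2 starts held matches too. The Rel line is chr11:23771007-23771106 on the minus strand, with the match 92 bases before the start. The Rela line is chr19:5637383-5637482 on the plus strand. The Nfkbia line is chr12:55492648-55492747 on the minus strand, where the match starts 29 bases before transcription begins. The Nfkbie line is chr17:45555549-45555648 on the plus strand, with the match 106 bases before the start. The Nfkbid line, chr7:30422156-30422259 on the plus strand, belongs to the second of its 3 annotated starts and holds matches 226 and 181 bases before it; the windows of the other 2 starts held none. The Tnfaip3 line, chr10:19015411-19015547 on the minus strand, belongs to the first of its 2 annotated starts, with matches 125 and 12 bases before it. The window of the other Tnfaip3 start held none. Bcl3 had its match 2 bases after the start, inside the transcript, and it is not printed.

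Set against each other per kilobase of exon, the members fell into 2 abundant inhibitors and 8 genes at lower level. Nfkbia, which encodes IkBα, was the most abundant in every group, at 937 ± 291 CPM per kb in pregnant uterine Treg, 1019 ± 352 in non-pregnant uterine cells, 1525 ± 254 in lymph node Treg and 569 ± 190 in CD4conv (mean ± SD, n = 4 each, as for all group values here). Tnfaip3, which encodes the ubiquitin-editing protein A20, came next at 538 ± 336, 667 ± 292, 687 ± 259 and 321 ± 128 CPM per kb in the same order of groups. Among the subunits Rela led in each group, at 68.9 ± 32.4 CPM per kb in pregnant uterine Treg and 62.3 ± 9.43 CPM per kb in CD4conv, for example. The other subunits averaged between 14.99 (Nfkb1 in CD4conv) and 52.7 CPM per kb (Nfkb2 in non-pregnant uterine Treg). Nfkbie, Nfkbid and Bcl3 averaged between 9.14 (Bcl3 in non-pregnant uterine Treg) and 34.4 CPM per kb (Nfkbid in lymph node Treg). Neighbours in this order, such as Nfkb2 and Rel, overlapped between libraries, whereas in every group each library of Nfkbia and Tnfaip3 was above all libraries of the other 8 genes.

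**Figure D1:**
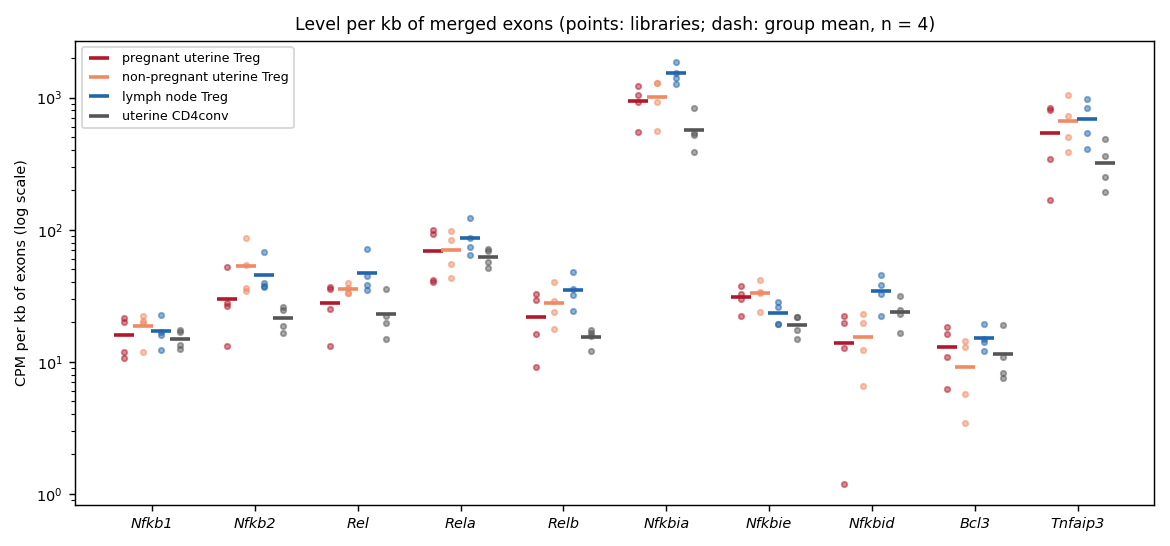
Level of the 10 genes in CPM per kb of merged exons on a log scale, with 1 point for each library and a dash for the mean of each group of 4 libraries. Nfkbia and Tnfaip3 stand above the other 8 genes in all 4 groups, and the CD4conv mean is the lowest for 8 of the 10 genes.

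The values of each member follow by library, in CPM, in replicate order (1, 2, 3 and 4 in pregnant uterine Treg; 1, 2, 3 and 5 in the other groups). Nfkb2, whose product p100 is the precursor and brake of the alternative route, had 239, 121, 127 and 60.7 CPM in pregnant uterine Treg, 248, 394, 165 and 158 CPM in non-pregnant uterine Treg, 172, 182, 168 and 312 CPM in lymph node Treg, against 119, 76.0, 85.7 and 112 CPM in CD4conv. Of the 12 Treg libraries, 11 were above every CD4conv library, and the exception was pregnant uterine Treg 4, the library with the largest background share. Relb, the partner of processed p100, had 128, 63.3, 114 and 35.3 CPM in pregnant uterine Treg, 92.7, 156, 113 and 68.3 CPM in non-pregnant uterine Treg, 137, 124, 94.3 and 186 CPM in lymph node Treg, against 67.8, 60.5, 46.6 and 64.1 CPM in CD4conv. Here 10 of the 12 Treg libraries were above every CD4conv library, and pregnant uterine Treg 2 and 4, both with over 30% background, were not.

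Rel encodes c-Rel, a subunit largely confined to lymphoid cells. It had 264, 189, 276 and 98.8 CPM in pregnant uterine Treg, 272, 297, 247 and 247 CPM in non-pregnant uterine Treg, 263, 333, 284 and 530 CPM in lymph node Treg, against 147, 111, 267 and 166 CPM in CD4conv. CD4conv 3 overlapped the Treg groups while the other 3 CD4conv libraries lay below every library of non-pregnant uterine Treg and lymph node Treg. Rela, which encodes the main activating subunit p65, had 287, 124, 308 and 127 CPM in pregnant uterine Treg, 256, 302, 169 and 132 CPM in non-pregnant uterine Treg, 229, 265, 196 and 380 CPM in lymph node Treg, against 159, 212, 219 and 176 CPM in CD4conv. The lowest Treg libraries for Rela were again pregnant uterine Treg 2 and 4 and non-pregnant uterine Treg 3 and 5, and all groups overlapped. Nfkb1, which encodes p105 and its product p50, had the smallest spread of the 10 genes over the 16 libraries, with a coefficient of variation of 24.6%. It ranged over 130 to 259 CPM in pregnant uterine Treg, 144 to 266 CPM in non-pregnant uterine Treg, 149 to 273 CPM in lymph node Treg and 150 to 210 CPM in CD4conv, and all groups overlapped.

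Of the inhibitors, Nfkbia had 1989, 1484, 1681 and 879 CPM in pregnant uterine Treg, 2092, 2079, 1486 and 902 CPM in non-pregnant uterine Treg, 3009, 2484, 2275 and 2054 CPM in lymph node Treg, against 866, 1344, 834 and 619 CPM in CD4conv. Its 4 lymph node libraries were above all pregnant uterine Treg and CD4conv libraries, and CD4conv 2 reached into the range of the uterine Treg. Nfkbie, which encodes IkBε, an inhibitor with a preference for c-Rel and p65 dimers, showed another order. It had 115, 91.1, 99.9 and 67.7 CPM in pregnant uterine Treg, 102, 127, 102 and 72.3 CPM in non-pregnant uterine Treg, 79.7, 59.1, 58.8 and 87.0 CPM in lymph node Treg, against 66.1, 45.3, 66.2 and 52.9 CPM in CD4conv. All 8 uterine Treg libraries were above every CD4conv library, and the lymph node Treg lay between, overlapping both.

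Tnfaip3 had 6038, 2465, 5846 and 1206 CPM in pregnant uterine Treg, 5266, 7585, 3650 and 2781 CPM in non-pregnant uterine Treg, 2937, 6017, 3905 and 7010 CPM in lymph node Treg, against 2604, 1388, 1810 and 3486 CPM in CD4conv. Its spread within groups was wide, and every group overlapped every other. Nfkbid had 46.1, 29.9, 52.5 and 2.80 CPM in pregnant uterine Treg, 54.2, 45.8, 15.3 and 28.7 CPM in non-pregnant uterine Treg, 106, 89.6, 51.8 and 75.8 CPM in lymph node Treg, and 53.7, 57.8, 74.2 and 38.7 CPM in CD4conv. The lowest value rested on 10 counts in pregnant uterine Treg 4. Bcl3, which encodes a nuclear cofactor of p50 and p52 homodimers, was the lowest member, at 15.4 to 45.5 CPM in pregnant uterine Treg, 8.49 to 35.7 CPM in non-pregnant uterine Treg, 29.7 to 48.1 CPM in lymph node Treg and 18.6 to 46.7 CPM in CD4conv, with all groups overlapping. The kits did not keep the strand of the RNA, and Nfkb1, Nfkb2 and Bcl3 overlap other annotated genes. Reads of the shared stretches therefore cannot be assigned by strand. Whether they were counted or left out is not known, as the counting settings are not given.

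**Figure D2:**
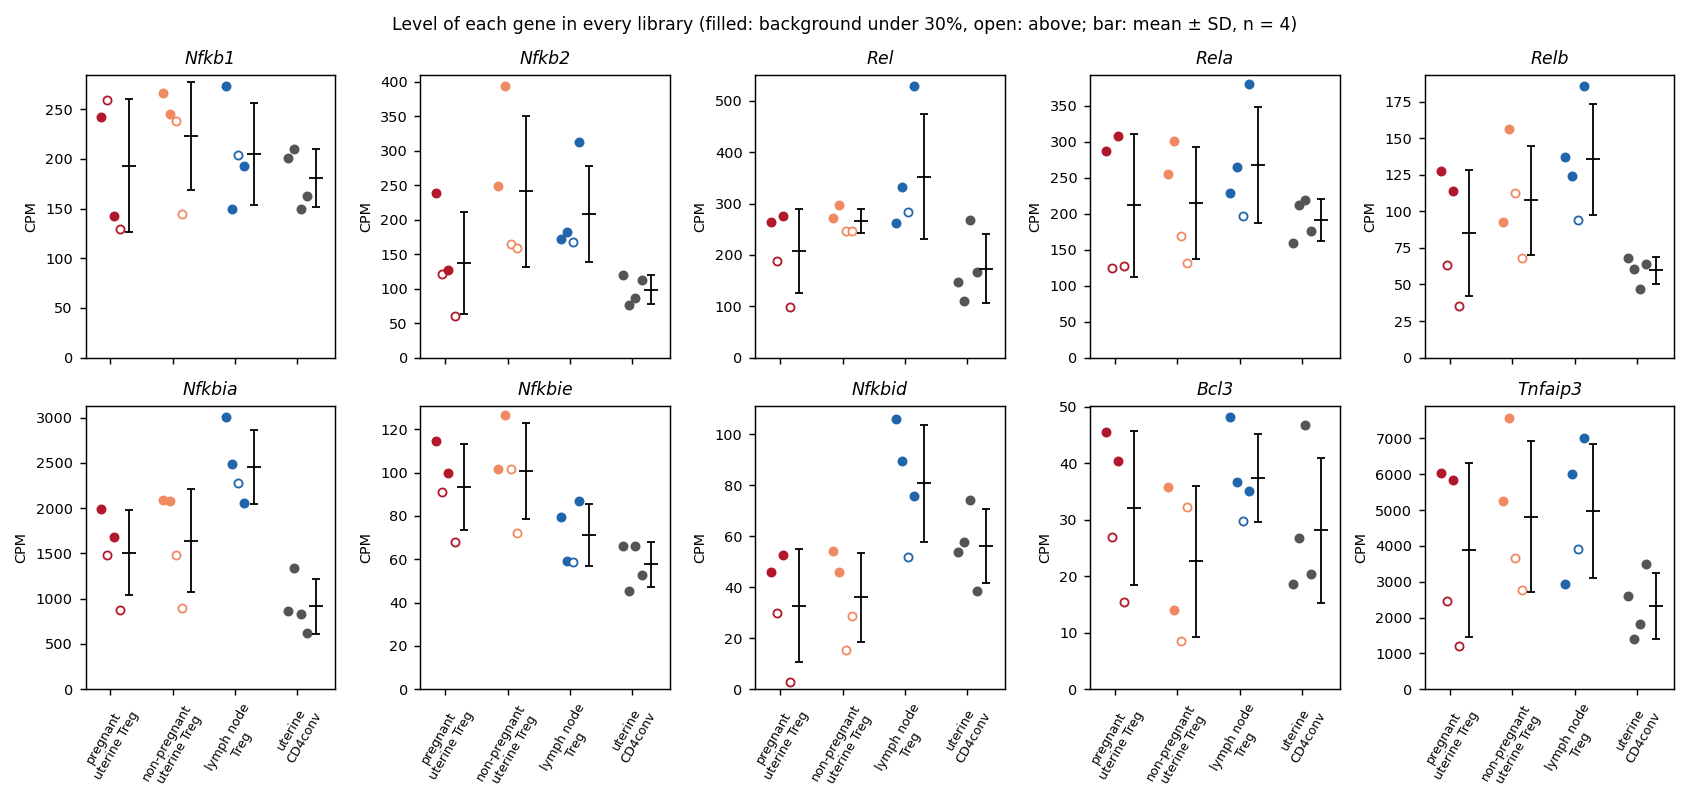
CPM of each gene in every library, by group, with the mean ± SD beside the 4 points; open points are the 5 libraries with a background share above 30%. CD4conv is low for Nfkb2, Relb, Nfkbia and Nfkbie, and open points tend to be the lowest within the uterine Treg groups.

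Non-pregnant uterine Treg carried more Nfkb2, Relb, Nfkbia and Nfkbie RNA than their conventional CD4 neighbours in the fit on genes above background. Nfkb2 was higher by 1.35 ± 0.27 (log2 fold change ± SE; adjusted p = 0.00376), a 2.55-fold difference, Nfkbie by 0.90 ± 0.23 (adjusted p = 0.0215), Relb by 0.94 ± 0.26 (adjusted p = 0.0376) and Nfkbia by 0.89 ± 0.25 (adjusted p = 0.0418). Thus 4 of 10 members were called higher and none lower, where 3.11% of the 4723 genes were called higher and 2.99% lower. Tnfaip3, at 1.12 ± 0.33 (adjusted p = 0.0531), and Rel, at 0.73 ± 0.27 (adjusted p = 0.124), did not pass the threshold of 0.05. The other 4 members had log2 fold changes between -0.60 (Nfkbid) and 0.40 (Nfkb1). The members' median log2 fold change was 0.81, against 0.02 over all genes in that fit. The groups did not overlap in CPM for Nfkb2, Relb and Nfkbie, as for 3.39% of these genes in that direction. These genes and Tnfaip3 stood apart on the library scaling (TMM) of that fit, where the share of all genes was not taken. On the TMM scaling of all genes Nfkb2, Relb and Nfkbie overlapped, with 14, 10 and 13 of the 16 pairs of libraries higher in non-pregnant uterine Treg. On that scaling of all genes no member was free of overlap in any of the 6 comparisons. In the genes above background DESeq2 called Tnfaip3 (1.09, adjusted p = 0.0126) beside the same 4 members, where it called 4.36% of genes higher. Limma with quality weights called them with Tnfaip3 (0.91, adjusted p = 0.0275) and Rel (0.99, adjusted p = 0.00352), where it called 6.12% of genes higher.

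Over all 30096 genes none of the members passed in the comparison of non-pregnant uterine Treg with CD4conv (0 with an unadjusted p under 0.05, as for 5.33% of genes), while 0.0332% of genes were called higher and 0.485% lower. Neither DESeq2 nor limma called a member over all genes there. The members' median log2 fold change was 0.48 in that fit, and that of the 4723 genes above background was -0.29 there, against 0.02 in their own fit. The shift of the same genes between fits was also over 0.1 for non-pregnant uterine Treg over lymph node Treg (-0.22 and 0.05), pregnant uterine Treg over CD4conv (-0.23 and 0.03) and pregnant uterine Treg over lymph node Treg (-0.17 and 0.05). Leaving out the 5 libraries above 30% background kept only libraries 1 and 2 of non-pregnant uterine Treg. Over all genes 427 genes were then called, among them Nfkb2 (1.78, adjusted p = 0.0252) and Tnfaip3 (1.58, adjusted p = 0.0178). In the genes above background those same 2 were then the called members, while Relb (0.92, adjusted p = 0.0667), Nfkbia (1.04, adjusted p = 0.0652) and Nfkbie (0.85, adjusted p = 0.0786) no longer passed, at similar or larger log2 fold changes. With only the libraries of these 2 groups in that fit, Nfkb2 alone passed, and the fold changes of the others barely moved (Relb 0.94, adjusted p = 0.0967; Nfkbia 0.89, adjusted p = 0.145; Nfkbie 0.90, adjusted p = 0.0906), and with RLE scaling Nfkbia missed the threshold (0.0521). The share of all genes called among genes above background without those 5 libraries, or with only 2 groups, is not given here. When 1 library was left out at a time, Nfkb2 stayed past the threshold in all 16 fits. Nfkbia missed it in 12 of them (adjusted p 0.05001 to 0.125), all but those without CD4conv 2, lymph node Treg 5, non-pregnant uterine Treg 5 or pregnant uterine Treg 4. Relb missed it without any 1 of the CD4conv libraries, lymph node Treg 2 or non-pregnant uterine Treg 2 or 3 (0.0584 to 0.134), and Nfkbie without CD4conv 1, 2 or 5 or non-pregnant uterine Treg 2 or 3 (0.0504 to 0.0736). Tnfaip3 passed without CD4conv 5, lymph node Treg 1, non-pregnant uterine Treg 5 or pregnant uterine Treg 4 (0.0244 to 0.0438), and Rel without CD4conv 3 (1.05, adjusted p = 0.0220). This comparison crossed the sequencing batches.

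Pregnant uterine Treg could be set against the same CD4conv libraries within 1 batch. CD4conv came from the non-pregnant uterus and from larger pools, so cell type, pregnancy and pool size cannot be told apart in it. Nfkbie was higher by 0.92 ± 0.23 (adjusted p = 0.0181) and Nfkbia by 0.88 ± 0.25 (adjusted p = 0.0386) among genes above background, so 2 of 10 members were called higher and none lower, where 4.11% of genes were called higher and 4.28% lower. Nfkb2 (0.61 ± 0.26, adjusted p = 0.161), Relb (0.61 ± 0.26, adjusted p = 0.154) and Tnfaip3 (0.81 ± 0.33, adjusted p = 0.139) did not pass. The other 5 members lay between -0.76 (Nfkbid) and 0.39 (Rel). The members' median was 0.50, against 0.03 over all genes in the fit, and 9 of 10 log2 fold changes were above 0, as for 52% of those genes. Only Nfkbie had no overlap in CPM between the groups, as 2.56% of the genes did in that direction. On the scaling of that fit 4 members stood apart, Nfkb2, Relb, Nfkbia and Nfkbie, and the share of all genes was not taken there. On the TMM scaling of all genes 9 of the 16 pairs of libraries were higher in pregnant uterine Treg for Nfkbie. In the genes above background DESeq2 called Nfkbia and Nfkbie alone, where it called 6.18% of genes higher. Limma with quality weights called them with Relb (0.69, adjusted p = 0.0383) and Bcl3, where it called 8.17% of genes higher. Both this comparison and the one of non-pregnant uterine Treg used the same 4 CD4conv libraries, so their likeness is not independent.

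For pregnant uterine Treg over CD4conv, the fit over all 30096 genes called none of the members (0 with an unadjusted p under 0.05, as for 4.79% of genes; DESeq2 and limma 0), where 0.0332% of genes were called higher and 0.399% lower. Without the 5 libraries above 30% background, which kept only pregnant uterine Treg 1 and 3 of that group, it called 230 genes, among them Tnfaip3 (1.55, adjusted p = 0.0250). The fit on genes above background then called no member (Nfkbie 0.77, adjusted p = 0.119; Nfkbia 0.85, adjusted p = 0.135). The share of all genes called in that reduced fit is not given here. With only the libraries of these 2 groups in the fit, Nfkbie (0.87, adjusted p = 0.0945) and Nfkbia (0.83, adjusted p = 0.157) did not pass either. Nfkbie stayed past the threshold in all 16 fits that left out 1 library. Nfkbia missed it in 11 of them (adjusted p 0.0520 to 0.103), all but those without CD4conv 2, lymph node Treg 1 or 5, or non-pregnant uterine Treg 1 or 5.

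The CD4conv libraries also differed from the Treg in markers of other cells. The summed level of the 12 markers of macrophages and dendritic cells was 165 to 468 CPM in pregnant uterine Treg, 273 to 1263 CPM in non-pregnant uterine Treg and 106 to 143 CPM in lymph node Treg, against 1757 to 23264 CPM in CD4conv. For 8 markers of plasmacytoid dendritic cells, it was 184 to 551 CPM in pregnant uterine Treg, 88.5 to 498 CPM in non-pregnant uterine Treg and 167 to 305 CPM in lymph node Treg, against 2686 to 6603 CPM in CD4conv. The 6 NK cell markers summed to at most 38.9 CPM in any Treg library, against 350 to 1344 CPM in CD4conv, and the 2 CD8 markers to at most 38.6 CPM, against 139 to 350 CPM. All markers of these lists were found in some library of CD4conv, and 1 plasmacytoid marker was at 0 in every non-pregnant uterine Treg library. The 6 T cell markers summed to 1010 to 4348 CPM in pregnant uterine Treg, 1579 to 5069 CPM in non-pregnant uterine Treg and 3356 to 4580 CPM in lymph node Treg, against 1266 to 2883 CPM in CD4conv. B cell markers summed to 423 to 1076 CPM in CD4conv and to at most 597 CPM in Treg. Stroma and muscle markers reached 1034 CPM and epithelium markers 394 CPM in non-pregnant uterine Treg, against at most 149 and 143 CPM in CD4conv. Endothelium markers overlapped between all groups. In such bulk libraries fewer cells of a type and less RNA per cell cannot be told apart, and the part of these cells in the members' differences from CD4conv was not tested.

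**Figure D3:**
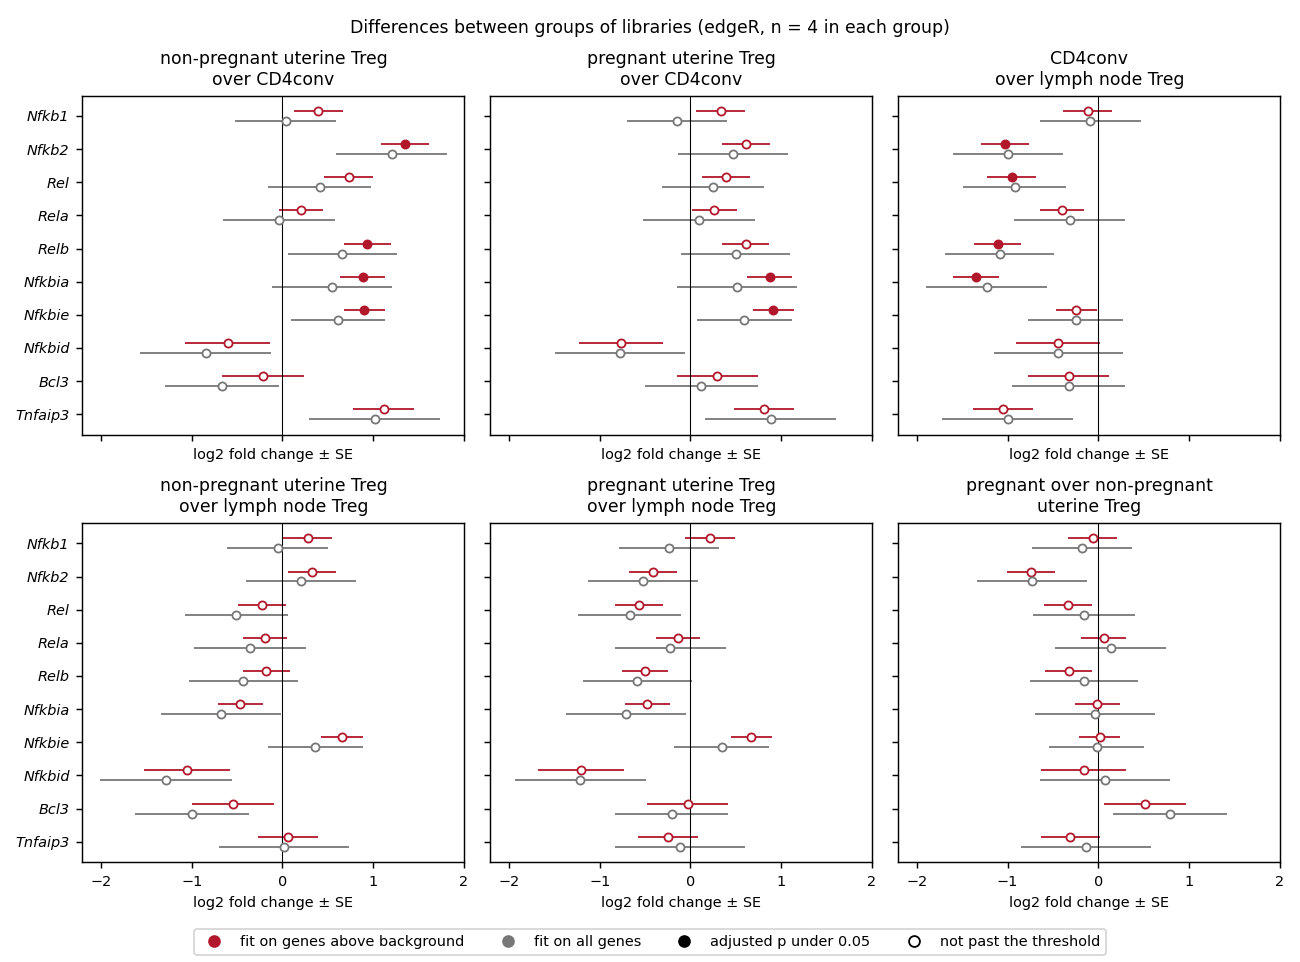
Log2 fold change ± SE of each gene in the 6 comparisons, with 4 libraries in each group, from the fit on genes above background (red) and on all genes (grey); filled points passed an adjusted p of 0.05. Filled points occur in the 3 comparisons with CD4conv only, and the grey points, with wider errors, are all open.

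CD4conv were also set against lymph node Treg. In the fit on genes above background CD4conv were lower in Nfkbia (-1.35 ± 0.25, adjusted p = 0.00210), Relb (-1.11 ± 0.26, adjusted p = 0.0109), Nfkb2 (-1.03 ± 0.27, adjusted p = 0.0215) and Rel (-0.96 ± 0.27, adjusted p = 0.0325). So 4 of 10 members were called lower and none higher, where 2.88% of genes were called lower and 4.76% higher. Tnfaip3 was at -1.06 ± 0.33 (adjusted p = 0.0615), and the other 5 lay between -0.45 (Nfkbid) and -0.12 (Nfkb1). All 10 log2 fold changes were below 0, where 50.7% of genes were above it, with a median of -0.70 against 0.01 over all genes. The libraries did not overlap in CPM for Nfkb2, Relb and Nfkbia, as for 8.15% of the genes in that direction. The same held on the scaling of that fit, but on the TMM scaling of all genes 1, 1 and 3 of their 16 pairs were higher in CD4conv. In the genes above background DESeq2 called Tnfaip3 (-1.05, adjusted p = 0.0155) beside the same 4 members, where it called 3.77% of genes lower. Limma with quality weights called every member but Nfkb1 and Nfkbie, where it called 12.1% of genes lower.

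For CD4conv over lymph node Treg the fit over all genes called none of the members (0 with an unadjusted p under 0.05, as for 3.98% of genes), where 0.0731% of genes were called lower and 0.591% higher; limma with quality weights called Nfkbia there (-1.36, adjusted p = 0.000826), as it called 3.29% of genes lower. Rel lost its call without CD4conv 1, 2 or 5 or lymph node Treg 2, 3 or 5 (adjusted p 0.0595 to 0.154). The log2 fold change of smallest size among those fits was -0.745, against the -0.96 given above. Its call was also lost without the 5 libraries above 30% background (-0.998, adjusted p = 0.0820). The same held with only these 2 groups in the fit (-0.95, adjusted p = 0.0899). Nfkb2 lost its call without CD4conv 2 or 3 or lymph node Treg 5 (0.0617 to 0.103), and Relb without lymph node Treg 5 (0.0543). Tnfaip3 passed without CD4conv 5, lymph node Treg 1 or pregnant uterine Treg 4 (0.0276 to 0.0328). This comparison crossed the batches, the tissues and the cell types, which cannot be told apart in it, and it shares libraries with each of the other comparisons except that of pregnancy.

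Between Treg of the non-pregnant uterus and of the lymph node, both in the second batch, no member passed the threshold. Among genes above background 0.932% of genes were called higher and 0.36% lower, and 0 of 10 members were called, 2 of them with an unadjusted p under 0.05, as for 10.9% of genes. Those were Nfkbie, at 0.66 ± 0.23 (adjusted p = 0.232), and Nfkbid, at -1.05 ± 0.47 (adjusted p = 0.425). Nfkbie had 14 of the 16 pairs of libraries higher in the uterus in CPM (10 on the TMM scaling of all genes and 16 on that of genes above background). Nfkbid had 1 of 16 pairs higher in CPM (2 on the TMM scaling of all genes and 0 on that of genes above background). The share of all genes apart on either TMM scaling was not taken. The remaining log2 fold changes ran between -0.54 (Bcl3) and 0.33 (Nfkb2), and the members' median was -0.18 against 0.05 over all genes. With limma and quality weights Nfkbie passed among genes above background (0.83, adjusted p = 0.0106), where limma called 3.43% of genes higher, and DESeq2 called no member. Over all genes 0 members and 0% of genes were called in this comparison (unadjusted p under 0.05: 0 members and 3.01% of genes), and Nfkbie, at 0.36 there, turned to -0.03 when non-pregnant uterine Treg 2 was left out.

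Pregnant uterine Treg were also set against lymph node Treg, across batches. In the genes above background Nfkbie was at 0.67 ± 0.23 (adjusted p = 0.135), Nfkbid at -1.21 ± 0.47 (adjusted p = 0.215) and Rel at -0.57 ± 0.27 (adjusted p = 0.312). None of the 10 members was called (3 with an unadjusted p under 0.05, as for 15.8% of genes), where 1.57% of genes were called higher and 0.783% lower. DESeq2 called 0 members, and limma with quality weights called 1, Nfkbie (0.71, adjusted p = 0.0153), where it called 5.67% of genes higher. Nfkbia, at -0.47 ± 0.25 (adjusted p = 0.368), had no overlap between the groups in CPM, as 8.45% of the genes in that direction did, but its groups overlapped on both TMM scalings (6 of 16 pairs higher in pregnant uterine Treg over all genes and 1 of 16 over genes above background). Over all genes 0 members and 0% of genes were called for pregnant uterine Treg over lymph node Treg, with 0 members at an unadjusted p under 0.05, as for 3.1% of genes. The lymph node libraries are those of the previous comparison.

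No member passed the threshold between pregnant and non-pregnant uterine Treg. Pregnant over non-pregnant uterine Treg gave 0 of 10 members and 0% of genes called in either direction, among genes above background and over all genes. At an unadjusted p under 0.05 there was 1 member above background, as for 6.37% of those genes, and 0 over all genes, as for 2.73%. Nfkb2 had the smallest p, with a log2 fold change of -0.74 ± 0.26 (unadjusted p = 0.0114, adjusted p = 0.675), and 14 of the 16 pairs of libraries were lower in pregnancy in CPM (5 of 16 were higher on the TMM scaling of all genes). Leaving out 1 library at a time moved this value between -0.97 and -0.53 without a call. Rel was lower in pregnancy in all 16 pairs on the scaling of genes above background, where the share of all genes was not taken. In CPM 5 of its 16 pairs were higher, and 6 on the TMM scaling of all genes. The 9 members other than Nfkb2 lay between -0.34 (Rel) and 0.51 (Bcl3), with SEs of 0.23 to 0.47. The Nfkb2 difference from CD4conv, called for non-pregnant and not for pregnant uterine Treg, is therefore not shown to differ between them. Pregnant uterine Treg 2 and 4, the lowest pregnant libraries for Nfkb2, Rela and Relb, had 35.3% and 53.5% background, while 1 and 3 had 9.92% and 8.68%; its part in these values was not tested.

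Ratios between members within a library do not depend on how libraries are scaled to each other. The ratio of Nfkb2 to Nfkb1, per kilobase and on the log2 scale, was 1.38, 0.29, 1.23 and 0.30 in pregnant uterine Treg, 1.30, 2.08, 0.87 and 1.53 in non-pregnant uterine Treg, 0.73, 1.68, 1.11 and 2.09 in lymph node Treg, against 0.64, -0.07, 0.59 and 0.86 in CD4conv. Every non-pregnant uterine Treg library was above every CD4conv library, narrowly (0.87 at the lowest against 0.86 at the highest), and the other groups overlapped CD4conv. The Nfkbia to Rela ratio, the inhibitor over its main client, averaged 3.83 ± 0.48 in pregnant uterine Treg, 3.87 ± 0.18 in non-pregnant uterine Treg and 4.16 ± 0.57 in lymph node Treg, against 3.15 ± 0.41 in CD4conv. The non-pregnant uterine Treg libraries, at 3.71 to 4.07, did not overlap the CD4conv libraries, at 2.75 to 3.59. The Rel to Rela ratio was -1.29 ± 0.43 in pregnant uterine Treg, -0.90 ± 0.43 in non-pregnant uterine Treg and -0.89 ± 0.15 in lymph node Treg, against -1.49 ± 0.52 in CD4conv, so Rela exceeded Rel per kilobase in every library. All these ratios are descriptions without a test.

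**Figure D4:**
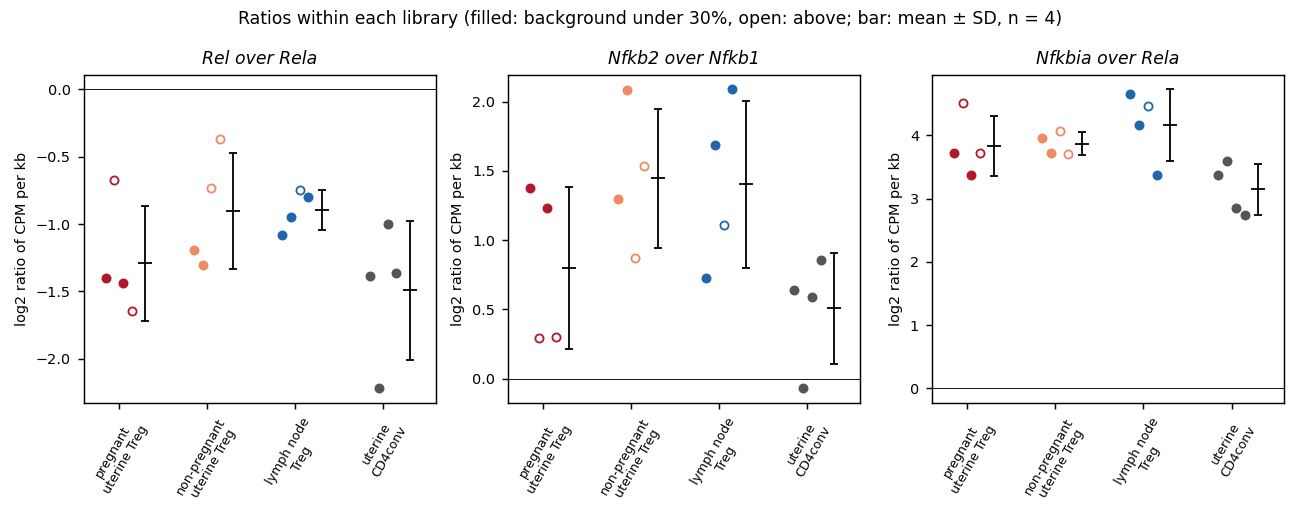
Log2 ratio of CPM per kb of Rel over Rela, Nfkb2 over Nfkb1 and Nfkbia over Rela in every library, with mean ± SD of each group of 4; open points are libraries with more than 30% background. Nfkbia exceeds Rela in all libraries, and its ratio is lowest on average in CD4conv.

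Across the 16 libraries the alternative-route genes and Tnfaip3 varied together, and other members varied with them. Relb had an r of 0.79 with Rel, 0.78 with Nfkbia and 0.76 with Rela. On log2 CPM, Pearson's r was 0.89 between Nfkb2 and Tnfaip3, 0.88 between Nfkb2 and Relb, 0.87 between Relb and Tnfaip3 and 0.80 between Rel and Tnfaip3, whereas the r of Bcl3 with Nfkbie was -0.07 and that of Nfkbid with Nfkbie -0.06. These libraries share groups, batches and background, so r is a description: Nfkbid and Rela themselves had an r of -0.76 and -0.71 with the background share of the library. For Nfkb2, Relb and Tnfaip3 that r was -0.35, -0.48 and -0.39. Among 8503 protein-coding genes, the ones most like Nfkb2 were Tomm34, Pim3 and Stat5a (r of 0.95, 0.94 and 0.91), and the closest to Relb were Stat5a, Prkch and Shisa5 (0.93, 0.92 and 0.92). Nfkbia was followed most closely by Fam169b, Zfp36l1 and Capg (0.95, 0.94 and 0.93), Tnfaip3 by Ube2h, Nt5e and Akna (0.95, 0.94 and 0.94), and Rel by Ecm1, Cd81 and Nt5e (0.90, 0.89 and 0.88). Nfkbie was nearest to Fam129a, Cmip and Pim1 (0.89, 0.88 and 0.88) and Nfkbid to Ucp2, Slc25a5 and Cct4 (0.95, 0.95 and 0.94). For Nfkb1, Rela and Bcl3 the nearest genes were Nipbl (0.84), Ccnl2 (0.89) and Vps26c (0.75).

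Other genes of the pathway gave calls in some of the lists, among genes above background. Of 8 tested IkB proteins and regulators, Tnip1, which encodes an A20-binding inhibitor, was the 1 called gene. It was higher in non-pregnant uterine Treg than in CD4conv (1.34 ± 0.24, adjusted p = 0.00144) and in pregnant uterine Treg than in CD4conv (1.23 ± 0.24, adjusted p = 0.00272), and lower in CD4conv than in lymph node Treg (-1.34 ± 0.24, adjusted p = 0.00121). It averaged 153 ± 63.6 CPM in pregnant uterine Treg, 173 ± 72.0 CPM in non-pregnant uterine Treg and 190 ± 42.0 CPM in lymph node Treg, against 72.4 ± 20.2 CPM in CD4conv. Of this list Nfkbiz, Tax1bp1 and Cyld had the highest levels and none was called; Nfkbiz, at 599 ± 374 CPM in pregnant uterine Treg, 599 ± 188 CPM in non-pregnant uterine Treg, 345 ± 70.8 CPM in lymph node cells and 393 ± 75.5 CPM in CD4conv, had log2 fold changes of 0.68 and 0.65 over CD4conv and 0.94 and 0.91 over lymph node Treg for non-pregnant and pregnant uterine Treg.

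Of 8 tested kinases and adaptors of the classical route 0 were called in any of the 6 comparisons, with list medians between -0.04 and 0.14. Ikbkb, Rbck1 and Traf6, the most abundant of them, had log2 fold changes between -0.51 and 0.44. Prkcq and Bcl10, which act between the antigen receptor and the IkB kinase, were not called in any of these comparisons. In the alternative route, with 2 tested genes, Birc2 was higher in Treg of the pregnant uterus than in CD4conv (1.06 ± 0.25, adjusted p = 0.0130) and Birc3 was not called.

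Of 15 tested target genes, Traf1 and Il2ra, which encodes CD25, were called in the 3 comparisons with CD4conv. Traf1 was higher by 1.78 ± 0.25 in non-pregnant (adjusted p = 0.000211) and by 1.48 ± 0.25 in pregnant uterine Treg (adjusted p = 0.00113), and CD4conv over lymph node Treg gave -1.60 ± 0.25 (adjusted p = 0.000431). Il2ra was higher by 2.13 ± 0.25 in non-pregnant (adjusted p = 3.63e-05) and by 2.62 ± 0.26 in pregnant uterine Treg (adjusted p = 4.09e-06) than in CD4conv. Against lymph node Treg it was lower, with -1.48 ± 0.25 in non-pregnant (adjusted p = 0.00421) and -0.99 ± 0.24 in pregnant uterine Treg (adjusted p = 0.0376), and CD4conv over lymph node Treg gave -3.61 ± 0.27 (adjusted p = 7.26e-08). CD25 was itself a label of these sorts. Ikbke was higher in Treg of the pregnant uterus than in CD4conv (1.14 ± 0.35, adjusted p = 0.0495) and lower in CD4conv than in lymph node Treg (-1.43 ± 0.35, adjusted p = 0.0148). Bcl2l1, which encodes the survival protein Bcl-xL, was lower than in lymph node Treg both in pregnant uterine Treg (-1.32 ± 0.31, adjusted p = 0.0292) and in CD4conv (-1.06 ± 0.31, adjusted p = 0.0398).

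The chemokine genes Ccl3 and Ccl4 went the other way. Ccl4 was lower in non-pregnant uterine Treg than in CD4conv (-4.39 ± 1.12, adjusted p = 0.0299), and it averaged 7.48 ± 5.65 CPM in pregnant and 12.6 ± 10.9 CPM in non-pregnant uterine Treg, against 293 ± 172 CPM in CD4conv. In pregnant uterine Treg Ccl3 (-5.12 ± 1.47, adjusted p = 0.0430) and Ccl4 (-4.90 ± 1.15, adjusted p = 0.0170) were both lower than in CD4conv, and both were higher in CD4conv than in lymph node Treg (6.81 ± 1.66, adjusted p = 0.0176, and 5.78 ± 1.22, adjusted p = 0.00750). Macrophages and NK cells also express these chemokines, and the summed markers of those cells given above were likewise higher in CD4conv. The part of those cells in the chemokine differences was not tested. Over all genes the calls of these lists were Ccl3 and Ccl4 in the 3 comparisons with CD4conv, in the same directions, and Il2ra in CD4conv over lymph node Treg (-3.64 ± 0.62, adjusted p = 0.00219). The pathway lists had medians between -0.64 and 0.81 among genes above background; the extremes were those of the alternative route, which rested on 2 genes, while the medians of all genes in these fits lay between 0.00 and 0.05.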

How the data were processed

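Counts of reads per gene were deposited by the authors, not normalized, as a table of 49585 genes and 16 libraries and as 16 single-library files, all 16 of which held the table's values. Per the submitters' processing notes, Trimmomatic, HISAT2, SAMtools, featureCounts and DESeq2 were used on GRCm38; the sources used here give no versions or settings for them. Per the labels' protocols, cDNA was made with SMART-Seq v4, libraries with Nextera XT, and paired reads of 150 bases were sequenced on a NextSeq 500 in 2 batches.

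Symbols, coordinates and merged exon lengths came from GENCODE M21, which named 49326 genes. Groups came from the labels. CPM is counts per M counts of the library. The background was the mean CPM per exonic base of 1429 olfactory and vomeronasal receptor genes. Tests used edgeR 4.0.16 in R 4.3.3 on the deposited counts (quasi-likelihood, TMM scaling, filterByExpr, robust fit with 4 group means over 16 libraries, 12 residual degrees of freedom), with Benjamini-Hochberg adjustment over all genes tested and a threshold of 0.05. SEs were taken from the size of the log2 fold change and the F statistic (their quotient after a square root of F). The fit on 4723 genes above 5 times the background restricts and rescales the same test. The 10 members, the pathway lists, the marker lists and this second fit were chosen with earlier results of these data known, and CD4conv against lymph node Treg was added after seeing the data. Replicates are separate pools of mice, so p-values measure the spread between pools. DESeq2 1.42.0, limma 3.58.1 (voom with quality weights), RLE scaling, other filters, a replicate block and leaving out libraries were tried as alternatives. The fits were tested on simulated counts. All 10 members are named, with the called genes and the 3 most abundant genes of each pathway list (a listed gene is not reported here), and the 3 genes of most like pattern for members with a mean of at least 20 CPM.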

Additional observations from a re-analysis of the deposited data

Results flagged for a closer look

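Nfkb2 in lymph node Treg 5 stood apart from the other 3 lymph node libraries. It had 312 CPM, while the others had 168 to 182 CPM, and its gap to the nearest of them was a larger share of the group's range than the 95% limit of Dixon's test for 4 samples. Of 40 combinations of gene and group tested, this was the only one past that limit, and chance gives about 1 in 20. The same library also had the highest values of its group for Rel (530 CPM), Rela (380 CPM), Relb (186 CPM) and Tnfaip3 (7010 CPM) but the lowest for Nfkbia (2054 CPM). Its background share was 16.5%. Without it, Nfkb2 in CD4conv over lymph node Treg was at -0.82 (adjusted p = 0.103) among genes above background.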

How the results depend on the processing

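The smallest library held 1.72 M counts, and up to 53.5% of a library's counts were background; no fit at matched depth was made. Over all 30096 genes edgeR called no member under the scalings and low-count filters tried or when any 1 library was left out, but it called Nfkb2 and Tnfaip3 without the 5 libraries above 30% background, and limma called Nfkbia, as given above. Member fold changes that were not called could turn sign. Over all genes Nfkbie in non-pregnant uterine over lymph node Treg ranged from -0.031 to 0.69 and Nfkb2 in pregnant uterine Treg over CD4conv from -0.15 to 0.79 when 1 library was left out. The cause of the changes below was not tested.

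Restricting to genes above background gave 4 members higher in non-pregnant uterine Treg over CD4conv, 2 higher in pregnant uterine Treg over CD4conv and 4 lower in CD4conv over lymph node Treg, against 0 over all genes. All genes called were then 61 for non-pregnant uterine over lymph node Treg (0 over all genes), 288 for non-pregnant uterine Treg over CD4conv (156), 396 for pregnant uterine Treg over CD4conv (130), 111 for pregnant uterine over lymph node Treg (0) and 361 for CD4conv over lymph node Treg (200). In the order non-pregnant uterine over lymph node Treg, non-pregnant uterine Treg over CD4conv, pregnancy, pregnant uterine Treg over CD4conv, pregnant uterine over lymph node Treg and CD4conv over lymph node Treg, DESeq2 called 28, 341, 13, 330, 47 and 436 genes over all genes. In genes above background it called 135, 438, 7, 618 and 248 in the first 5. Limma with quality weights called 3, 257, 4 and 2432 genes over all genes (the first, the second, the fifth and the sixth), with 1 member lower in the sixth, and 252, 514, 778, 467 and 1113 among genes above background (all but pregnancy). There it called 1 member higher in the first, 6 in the second, 4 in the fourth, 1 in the fifth and 8 lower in the sixth. Of the genes above background it called 3.43%, 6.12%, 8.17% and 5.67% higher in those comparisons, in the same order, and 12.1% lower in the sixth. A minimum mean of 10 CPM gave 2 genes for pregnant uterine over lymph node Treg.

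With only the 2 groups compared in the fit, 78 genes were called for pregnant uterine Treg over CD4conv and 414 for CD4conv over lymph node Treg over all genes. In genes above background the same fits called 111 for non-pregnant uterine over lymph node Treg and 163 for pregnant uterine Treg over CD4conv, with 1 member higher in non-pregnant and 0 in pregnant uterine Treg over CD4conv. The count of all genes called for non-pregnant uterine Treg over CD4conv in these fits is not given here. Without the 5 libraries above 30% background, all genes called were 2, 427, 4, 230 and 11 in the first 5 comparisons over all genes, with 2 members higher in the second and 1 in the fourth. In genes above background they were 17 (the first), 1 (pregnancy) and 36 (the fifth), with 2 members higher in the second and 0 in the fourth. The counts of all genes called in the second and the fourth are not given here.

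Leaving out 1 library gave 72 to 210 genes (the second), 72 to 162 (the fourth), 0 to 1 (the fifth) and 106 to 266 (the sixth) over all genes. Among genes above background it gave 19 to 101 (the first), 185 to 391 (the second), 244 to 471 (the fourth), 41 to 151 (the fifth) and 221 to 435 (the sixth), with 1 to 5 members higher in the second, 1 to 2 in the fourth and 1 to 5 lower in the sixth.

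Libraries that share a replicate number are not shown to be paired: of 21 such pairs 10 had an r above 0.1 (range -0.41 to 0.39), against 23 of 75 other pairs. With the replicate block among genes above background, 1 member was called higher in pregnant uterine Treg over CD4conv instead of 2 (Nfkbie 0.84, adjusted p = 0.0546), and 5 instead of 4 in non-pregnant uterine Treg over CD4conv (Tnfaip3 1.17, adjusted p = 0.0397). The share of all genes called in these block fits is not given here. Mean levels moved by more than 1 SD in CD4conv on TMM-scaled library sizes for Nfkb1 (216 CPM), Rela (228 CPM) and Relb (69.4 CPM), and after subtracting the background for Rela in CD4conv (222 CPM), Rel in non-pregnant uterine Treg (333 CPM), Nfkbia in pregnant uterine Treg (2052 CPM) and lymph node Treg (3205 CPM), and Nfkbie in pregnant (119 CPM) and non-pregnant uterine Treg (124 CPM).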

Other observations

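After the background was subtracted from each library, an alternative added after seeing the data, more groups stood apart than in CPM, whereas on the TMM scaling of all genes no groups stood apart for any member. Nfkbid in non-pregnant uterine Treg then averaged 39.5 ± 20.7 CPM, against 97.2 ± 20.98 CPM in lymph node Treg, and in pregnant uterine Treg 31.2 ± 32.4 CPM (below 0 in pregnant uterine Treg 4), with neither uterine group overlapping the lymph node libraries. Rel averaged 246 ± 70.5 CPM in pregnant and 333 ± 14.98 CPM in non-pregnant uterine Treg, and these groups no longer overlapped. Nfkbie in pregnant uterine Treg, at 119 ± 9.06 CPM, did not overlap lymph node Treg, at 84.0 ± 11.7 CPM. No test was made on these subtracted values. The share of all genes that stood apart on them was not taken, so these separations are not shown to be particular to the members.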
